A study of Mus musculus with 60 samples.

Results

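BIO 300 at 100 mg/kg, an amorphous solid dispersion of synthetic genistein, was compared with vehicle in unirradiated mice on Day 1, which was 48 h from the final dose. The comparison held 12 of the 60 mice of the series, chosen by their labels: 6 BIO 300-treated mice, animals 37 to 42, and 6 vehicle-treated mice, animals 25 to 30. All were male CD2F1 mice, purchased at 5 to 6 weeks of age, housed 3 to a cage and dosed by oral gavage for 6 days. The vehicle was the aqueous carrier of the drug without genistein. None of these mice was irradiated, and each was bled at a single time point. Whole blood was collected from the inferior vena cava into a tube that lyses the cells, and all RNA of the blood, from platelets, red cells, reticulocytes and white cells together, was sequenced as 1 library per mouse. Mice given 50 mg/kg or 200 mg/kg on the same day, and mice given vehicle or 100 mg/kg and sampled on Day 0, which was 24 h from the final dose, were used where a difference between doses or days was tested. The labels name the dose of animals 37 to 42 as the medium one, and its size in mg/kg comes from the methods of the study.

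Genistein is a soy isoflavone that binds estrogen receptors, with a preference for the beta receptor, and inhibits tyrosine kinases. Blood RNA is a mixture in which each cell type brings a known set of transcripts. Platelets have no nucleus and carry messenger RNA made by the megakaryocyte, reticulocytes are young red cells that keep messenger RNA for globin and heme synthesis and shed their organelles, and lymphocytes, monocytes and neutrophils are the nucleated cells, which also hold unspliced precursors and other RNA of the nucleus. In RNA from whole blood, fewer cells of a type and less RNA per cell cannot be told apart, and a share that rises for one cell type lowers the share of the rest.

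The main result was a divergence between these classes. Platelet transcripts were higher in BIO 300-treated mice, and lymphocyte transcripts and most noncoding genes within introns were lower. Transcripts of red cell precursors were higher with TMM scaling and mostly not called with total-count scaling (both scalings are explained next). Of 23699 genes tested, 4314 (18.2%) were differentially expressed genes (DEGs) that were higher and 7249 (30.6%) were lower with TMM scaling (edgeR quasi-likelihood test, Benjamini-Hochberg adjusted p under 0.05 and absolute log2 fold change over 1). TMM assumes that most genes do not differ. With the same test on libraries scaled by their total counts, which assumes only that totals are comparable, 980 genes (4.14%) were higher and 14735 (62.2%) lower. All 980 genes higher with total counts were also higher with TMM, and all 7249 genes lower with TMM were also lower with total counts. The median log2 fold change over all genes was -0.38 with TMM and -1.76 with total counts. The offset between both scalings had a median of 1.38 on the log2 scale, and 90% of genes lay between 0.578 and 1.42. Most classes below are therefore given on both scales and the others with TMM only. The background for each list of this comparison is the share of all genes. It is 18.2% higher and 30.6% lower with TMM, and 4.14% and 62.2% with total counts. Ratios of counts within a mouse, which no scaling moves, are given where they bear on the result.

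Library totals were 22.6 to 32.9 M counts in vehicle-treated mice and 17.2 to 45.6 M counts in BIO 300-treated mice, of which mice 37 and 41 were the deepest. Genes with at least 10 counts numbered 16324 to 17086 with vehicle and 11797 to 14816 with BIO 300, so that the treated libraries, including the 2 deepest, spread over fewer genes. TMM factors were 1.32 to 1.87 with vehicle and 0.543 to 0.715 with BIO 300, with no overlap. Genes whose groups of 6 mice did not overlap made up 17.9% (higher) and 28.3% (lower) of those tested with TMM, and 3.89% and 55.7% with total counts. The 20 most abundant genes of the treated libraries took 42.9 to 54.2% of their counts, against 35.1 to 40.6% with vehicle. Markers of blood cells were present in every library, as the tissue label says. Hepatocyte transcripts were high in 1 mouse of each group, mouse 29 and mouse 37, and are described below with the genes they touch.

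Platelet genes moved together. All 20 members of the platelet list were higher in BIO 300-treated mice with TMM, and all 20 were higher with total counts, against 18.2% and 4.14% of all genes tested. The median log2 fold change of the list was 2.98 with TMM, with members between 2.43 and 3.39, and 1.58 with total counts, with members between 1.03 and 1.98. The list took 0.611, 0.635 and 1.15% of counts in the lowest, the median and the highest vehicle-treated mouse and 1.42, 2.12 and 3.27% in the BIO 300-treated mice, a ratio of medians of 3.33. Its groups did not overlap, although the highest vehicle-treated mouse lay close to the lowest treated one. Leaving out each mouse in turn left 20 members higher with TMM and 18 to 20 with total counts.

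Alpha-granule chemokines were among the most abundant members. Pf4, platelet factor 4, stood at 203, 231 and 379 CPM (counts divided by the library size in M, here scaled by TMM) in the lowest, the median and the highest vehicle-treated mouse. In BIO 300-treated mice the corresponding values were 1603, 2036 and 3109 CPM. No treated mouse overlapped with a vehicle-treated one, and the log2 fold change was 2.99 with TMM (standard error 0.233, edgeR adjusted p = 1.09e-07) and 1.56 with total counts (standard error 0.223, adjusted p = 1.43e-05). Ppbp, the precursor of neutrophil-activating peptide 2, rose from 936, 1087 and 1853 CPM to 6712, 8559 and 13907 CPM (2.88 with TMM and 1.46 with total counts). The matrix and adhesion proteins stored in the same granules, Vwf and Thbs1, rose by 3.02 and 2.98 on the TMM log2 scale.

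The receptors of the platelet surface moved in parallel. Itga2b, the alpha chain of the fibrinogen receptor, stood at 164, 238 and 395 CPM with vehicle and 1639.6, 2078 and 4748 CPM with BIO 300, where mouse 42 was the highest by a wide margin. The log2 fold change of Itga2b was 3.21 with TMM (standard error 0.318, edgeR adjusted p = 9.90e-07) and 1.80 with total counts (standard error 0.266, adjusted p = 1.97e-05). Itgb3, which pairs with it, rose by 2.92 (TMM) and 1.53 (total counts). The 4 subunits of the von Willebrand factor receptor, Gp1ba, Gp1bb, Gp9 and Gp5, rose by 2.71, 3.39, 3.13 and 3.19 with TMM. Gp1bb overlaps Sept5 on the same strand, so reads of both genes may be counted together. The collagen receptor Gp6 rose by 2.91, the podoplanin receptor Clec1b by 2.88 and the ADP receptor P2ry12 by 2.60. Selp, the adhesion molecule P-selectin, was the member with the smallest change and the lowest level, at 1.83 to 5.20 CPM with vehicle and 12.4 to 33.7 CPM with BIO 300 (log2 fold change 2.43 with TMM and 1.03 with total counts).

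Platelet genes are driven in megakaryocytes by GATA factors, which bind the letters AGATAA. The 250 bases before the start of Gp5 and Gp6 are printed because both hold these letters, shown in capitals as AGATAA or, on the other strand, TTATCT (RefSeq, GRCm38.p6, written 5′ to 3′ on the strand of the gene). The Gp5 window is chr16:30310782-30311031 on the minus strand, with matches that begin 93 and 77 bases before the gene start. The Gp6 window is chr7:4397745-4397994 on the minus strand, with 1 match that begins 144 bases before it.
Gp5: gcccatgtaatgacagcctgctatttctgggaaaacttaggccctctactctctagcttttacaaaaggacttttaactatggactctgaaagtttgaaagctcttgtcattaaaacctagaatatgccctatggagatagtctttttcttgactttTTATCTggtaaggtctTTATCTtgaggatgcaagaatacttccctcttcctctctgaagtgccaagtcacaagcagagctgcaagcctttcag
Gp6: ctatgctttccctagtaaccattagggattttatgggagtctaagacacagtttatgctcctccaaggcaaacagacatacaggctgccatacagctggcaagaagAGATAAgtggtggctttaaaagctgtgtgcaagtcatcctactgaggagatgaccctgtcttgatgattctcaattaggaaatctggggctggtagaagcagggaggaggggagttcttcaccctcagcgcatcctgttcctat
In windows of 250 bases before and 50 bases after a gene start, searched on both strands, 4 of 16 windows of platelet genes held the letters (25.0%; Clec1b, Gp5, Gp6 and Pf4), against 3672 of 32851 windows of all genes (11.2%). RefSeq windows were found for 15 of the 20 platelet genes. Other lists gave 1 of 4 windows for adult globin genes (25.0%), 3 of 13 for red cell membrane genes (23.1%), 3 of 16 for neutrophil genes (18.8%), 2 of 12 for heme synthesis genes (16.7%), 2 of 13 for factors of both lineages (15.4%), 2 of 19 for T cell genes (10.5%) and 0 of 13 for B cell genes. Such a match describes the letters of a window and was not tested as a binding site.

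**Figure D1:**
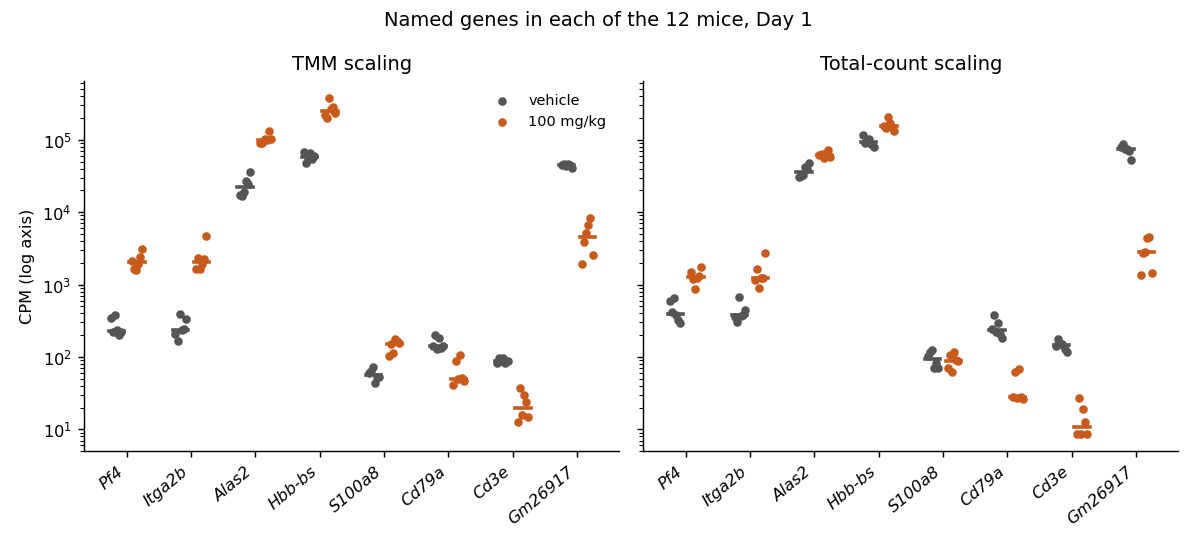
CPM (counts divided by the scaled library size in M, log axis) of 8 genes in each of the 6 vehicle-treated and 6 BIO 300-treated mice on Day 1, with TMM scaling and with total-count scaling; each point is 1 mouse and each bar the group median. Pf4 and Itga2b are higher on either scale without overlap, Cd79a, Cd3e and Gm26917 are lower on either scale, and S100a8 is higher with TMM (log2 fold change 1.32) but not with total counts (-0.10).

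Transcription factors shared by megakaryocytes and erythroid precursors followed the platelet genes. Of 11 factors tested, 9 were higher with TMM and 5 with total counts, and 1, Ldb1, was lower with total counts. Gata1, the master regulator of both lineages, stood at 15.5, 19.2 and 29.0 CPM with vehicle and at 99.2, 111 and 205 CPM with BIO 300, without overlap. Its log2 fold change was 2.66 with TMM (standard error 0.208, edgeR adjusted p = 1.12e-07) and 1.25 with total counts (standard error 0.188, adjusted p = 2.35e-05). The other 4 factors higher on both scales were Tal1 (2.79 with TMM and 1.38 with total counts), Gfi1b (2.85 with TMM and 1.44 with total counts), Nfe2 (2.60 with TMM and 1.18 with total counts) and Gata2 (2.45 with TMM and 1.04 with total counts). Klf1, which is restricted to the erythroid branch, was a low transcript at 1.42 to 2.98 CPM with vehicle and 7.10 to 9.91 CPM with BIO 300. It rose by 1.91 with TMM, and its change of 0.53 with total counts did not pass the fold threshold.

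Red cell transcripts were higher with TMM and, outside globin, mostly not called with total counts. The 4 adult globin genes took 8.30, 9.76 and 12.4% of counts with vehicle and 14.0, 15.9 and 22.5% with BIO 300, a ratio of medians of 1.63, and the groups did not overlap. These shares come after a depletion of globin RNA that the methods describe, and whether it worked equally in every library was not tested. All 4 genes rose with TMM (median log2 fold change 2.52) and 2 rose with total counts, Hba-a1 (1.49) and Hba-a2 (1.39). Hba-a1 and Hba-a2 encode the same alpha chain, and their near-identical sequences make the split of reads between them uncertain.

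Hbb-bs, a beta globin gene and the most abundant member, stood at 7.87, 9.23 and 11.8% of counts with vehicle and 13.2, 15.2 and 20.7% with BIO 300. The log2 fold change of Hbb-bs was 2.17 with TMM (standard error 0.889, edgeR adjusted p = 0.0444) and 0.75 with total counts (standard error 0.268, adjusted p = 0.0196). The call with TMM was a marginal one, lost with the RLE, upper quartile and unfiltered fits and when any 1 of 8 mice was left out. On the total-count scale the adjusted p passed but the fold did not. Hbb-bt, the minor beta gene, differed by 1.61 with TMM, where it was called, and by 0.19 with total counts, where it was not. Of 3 embryonic globin genes, 2 were called higher with TMM at levels under 2 CPM and none with total counts.

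Heme synthesis genes behaved alike. Of 13 tested, 12 rose with TMM and none was called with total counts, and the medians were 1.59 and 0.24. Alas2, the erythroid enzyme of the first step, took 3.02, 3.59 and 4.78% of counts with vehicle and 5.58, 6.24 and 7.11% with BIO 300. These shares did not overlap, with a log2 fold change of 2.12 with TMM (standard error 0.603, edgeR adjusted p = 0.00691) and 0.74 with total counts (standard error 0.225, adjusted p = 0.00745). Fech, which inserts iron, rose by 1.59 with TMM and differed by 0.24 with total counts. The mitochondrial carrier Slc25a39 had the largest change of the list with TMM (2.25) and Tmem14c, the only member not called, the smallest (0.71).

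Of 17 genes of the red cell membrane and its skeleton, 13 rose with TMM and 2 with total counts, the water channel Aqp1 (2.55 with TMM and 1.15 with total counts) and the Rh-associated glycoprotein Rhag (2.43 with TMM and 1.05 with total counts). Without mouse 26 or without mouse 37, 1 of these was higher with total counts. The anion exchanger Slc4a1 stood at 771, 1029 and 2899.7 CPM with vehicle and 2515, 2854 and 4220.4 CPM with BIO 300, where the highest vehicle-treated mouse overlapped with the treated ones. Its log2 fold change was 1.19 with TMM (standard error 0.322, edgeR adjusted p = 0.00504) and -0.16 with total counts (standard error 0.237, adjusted p = 0.558), with opposite signs. Sptb, a spectrin chain of the membrane skeleton, differed by 0.88 with TMM and was not called on either scale. The share of the whole list, 0.880, 1.26 and 3.18% with vehicle and 1.01, 1.18 and 1.51% with BIO 300, overlapped.

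Genes of reticulocyte maturation, the stage at which organelles are removed, gave 11 higher of 12 with TMM and none with total counts. Bnip3l, the receptor for the removal of mitochondria, stood at 4828, 6048 and 8479 CPM with vehicle and 13435, 18332 and 29837 CPM with BIO 300 on the TMM scale, without overlap (1.64 with TMM and 0.24 with total counts). Tfrc, the transferrin receptor of young reticulocytes, had a larger difference (2.17 with TMM and 0.77 with total counts) than Alox15 (0.21 with TMM and -1.15 with total counts), a lipoxygenase of late reticulocytes, which was called lower with total counts but not without mouse 29 or mouse 41. That contrast was not tested as such. All 9 red cell enzymes, Car1, Car2, Cat, Prdx2, Blvrb, Gpx1, Sod1, Selenbp1 and Fech, were higher with TMM and none was called with total counts.

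The mitochondrially encoded genes gave 12 higher of 12 with TMM and 4 with total counts, with medians of 2.22 and 0.82. mt-Co1, a subunit of cytochrome oxidase and the most abundant, stood at 1061, 1836 and 2495 CPM with vehicle and 5947, 9110.0 and 10443 CPM with BIO 300 (2.29 with TMM and 0.91 with total counts). The 4 called on both scales, mt-Co2, mt-Co3, mt-Atp6 and mt-Nd3, lay under 9 CPM in every mouse. They have near-identical nuclear copies that can take away their reads under unique counting, so their changes are uncertain. The whole list took 0.356 to 0.660% of counts with vehicle and 0.630 to 1.07% with BIO 300. Nuclear genes of oxidative phosphorylation moved less, with 16 of 50 higher and none lower with TMM, and none higher and 17 lower with total counts. The 32.0% higher with TMM was above the 18.2% of all genes, and the 34.0% lower with total counts was below the 62.2%.

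**Figure D2:**
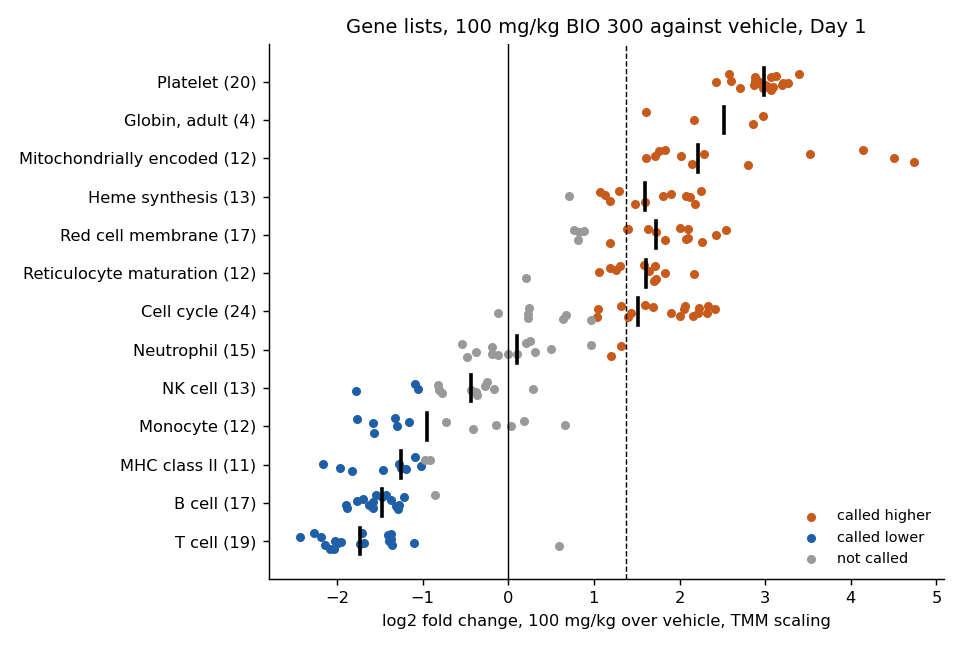
Log2 fold changes (TMM) of the members of 13 gene lists, 100 mg/kg BIO 300 against vehicle on Day 1; each point is 1 gene and each black bar a list's median, the solid line marks 0 on the TMM scale and the dashed line 1.38, the median offset to total counts. The platelet members all lie right of both lines, the B and T cell members lie left of the dashed line, and heme synthesis and red cell membrane members lie around the dashed line.

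Lymphocyte transcripts were lower in BIO 300-treated mice. Of 17 B cell genes, 16 fell with TMM and all 17 with total counts, and the exception with TMM was Spib (-0.85). The medians of the list were -1.47 and -2.85, beside -0.38 and -1.76 over all genes. Its share of counts was 0.338, 0.361 and 0.616% with vehicle and 0.0388, 0.0421 and 0.101% with BIO 300, without overlap.

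Cd79a, a signaling chain of the B cell receptor, stood at 128, 140.1 and 201 CPM with vehicle and 40.9, 50.2 and 105 CPM with BIO 300, without overlap. Its log2 fold change was -1.29 with TMM (standard error 0.232, edgeR adjusted p = 0.000251) and -2.67 with total counts (standard error 0.289, adjusted p = 9.33e-07). Ms4a1, which encodes CD20, had changes of -1.43 with TMM and -2.81 with total counts. The constant regions Ighm and Ighd of the surface immunoglobulins fell by 1.31 and 1.58 with TMM, and the largest decrease of the list was that of the complement receptor Cr2 (-1.89). Variable segments of immunoglobulins gave 170 lower and none higher of 238 with TMM, and 229 lower with total counts. These segments share sequence, and single segments are not reported.

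Of 19 T cell genes, 18 fell with either scaling, with medians of -1.74 and -3.11. Cd3e, a chain of the T cell receptor complex, stood at 81.9, 88.1 and 96.9 CPM with vehicle and 12.6, 19.8 and 37.7 CPM with BIO 300, without overlap. The log2 fold change of Cd3e was -1.98 with TMM (standard error 0.234, edgeR adjusted p = 5.48e-06) and -3.36 with total counts (standard error 0.288, adjusted p = 1.18e-07). The coreceptors Cd4 (-2.04) and Cd8a (-2.14) and the transcription factor Tcf7 (-1.74) fell alike, as did Bcl11b, the member with the largest decrease (-2.44). The exception was Lat, an adaptor that platelets and mast cells express too, with a log2 fold change of 0.60 with TMM and -0.83 with total counts and levels of 27.2 to 37.4 CPM with vehicle and 40.2 to 68.4 CPM with BIO 300. Variable segments of T cell receptors gave 64 lower and 1 higher of 94 with TMM, and 89 lower with total counts.

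NK cell genes were mostly not called with TMM. Of 13 tested, 3 fell with TMM, the receptors Klrd1 (-1.09) and Klrk1 (-1.06) and the kinase Txk (-1.78), while all 13 fell with total counts. The share that fell with TMM, 23.1%, was below the 30.6% of all genes, and without mouse 25 the count was 1. Ncr1, the receptor that defines NK cells, had 13.4, 16.7 and 33.3 CPM with vehicle and 12.4, 14.5 and 17.0 CPM with BIO 300, which overlapped (-0.44 with TMM and -1.84 with total counts).

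Ratios of counts within a mouse showed the divergence with no scaling. Platelet counts over B cell counts were 1.03, 1.80 and 3.22 in the lowest, the median and the highest vehicle-treated mouse and 19.6, 42.6 and 84.2 in BIO 300-treated mice. Adult globin counts over T cell counts were 49.5, 65.4 and 87.5 with vehicle and 489.9, 889.5 and 1605 with BIO 300. Neither pair of groups overlapped. Platelet counts over adult globin counts, in contrast, were 0.0561, 0.0699 and 0.115 with vehicle and 0.0633, 0.133 and 0.234 with BIO 300, and the groups overlapped.

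Neutrophil genes depended on the scaling. Of 15 tested, 2 rose and none fell with TMM, and none rose and 10 fell with total counts, with medians of 0.10 and -1.31. The 13.3% that rose with TMM and the 66.7% that fell with total counts were near the 18.2% and 62.2% of all genes. The genes that rose were S100a8 and S100a9, which encode the subunits of calprotectin. S100a8 stood at 44.4, 56.6 and 72.1 CPM with vehicle and 102, 152 and 179.9 CPM with BIO 300 on the TMM scale, without overlap, with a log2 fold change of 1.32 with TMM (standard error 0.156, edgeR adjusted p = 5.44e-06) and -0.10 with total counts (standard error 0.186, adjusted p = 0.650). On the total-count scale it stood at 70.3, 93.7 and 123 CPM with vehicle and 61.3, 89.0 and 116 CPM with BIO 300, which overlapped. Csf3r, the receptor for G-CSF, differed by -0.18 with TMM and -1.56 with total counts and fell only on the latter scale. Relative to T cell genes of the same mouse, neutrophil counts were 0.375, 0.600 and 0.661 with vehicle and 2.10, 2.30 and 3.03 with BIO 300, without overlap.

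Monocyte genes gave 6 lower of 12 with TMM (50.0%, beside 30.6% of all genes) and 11 with total counts (91.7%, beside 62.2%). The 6 were Ccr2, Ly6c2, Ms4a4c, Ms4a6c and Chil3, which mark classical monocytes, and Cx3cr1, which is highest on patrolling ones. Ccr2, the receptor for the chemokine CCL2, stood at 114 to 215 CPM with vehicle and 42.5 to 67.8 CPM with BIO 300 (-1.57 with TMM and -2.97 with total counts). Patrolling monocyte genes Treml4 (0.03), Fcgr4 (0.18) and Ace (-0.41) were not called with TMM, and the difference between both subsets was not tested. Csf1r, the receptor of the lineage, differed by -0.73 with TMM and -2.08 with total counts and fell with total counts. Basophil and eosinophil genes gave 2 lower of 11 with TMM (18.2%, below the 30.6% of all genes) and 11 with total counts (beside 62.2% of all genes). Without mice 29 and 37, a choice made after seeing the data, none of the 11 was called with TMM.

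Genes of antigen presentation by MHC class II, which B cells, monocytes and dendritic cells use, gave 9 lower of 11 with TMM and 11 with total counts. Cd74, the invariant chain, stood at 805, 986 and 1261 CPM with vehicle and 301, 319.8 and 729 CPM with BIO 300, without overlap (-1.20 with TMM and -2.56 with total counts). The transactivator Ciita (-1.82) and the peptide loading chain H2-DMb1 (-2.16) had larger decreases than the surface chains H2-Aa (-0.92, not called) and H2-Ab1 (-1.25). When mice were left out in turn, 7 to 11 members were lower with TMM. Of 13 MHC class I genes, 1 rose with TMM, B2m (1.48 with TMM and 0.07 with total counts), and 3 fell, the peptide transporters Tap1 (-1.83) and Tap2 (-1.66) and the transactivator Nlrc5 (-2.02). These shares, 7.69% higher and 23.1% lower, were below the 18.2% and 30.6% of all genes. With total counts none rose and 11 fell (84.6%, beside 62.2% of all genes).

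Innate sensing genes were lower or not called. Of 14 Toll-like receptors and adaptors, 7 fell with TMM (50.0%, beside 30.6% of all genes) and 14 with total counts (beside 62.2%). The decreases with TMM were those of Tlr9 (-2.16), Tlr1 (-1.94), Tlr6 (-1.82), Tlr3 (-1.42), Tlr7 (-1.18), Tlr8 (-1.18) and Tlr2 (-1.11). Tlr6, a receptor for bacterial lipopeptides, stood at 12.8, 14.6 and 15.3 CPM with vehicle and 2.72, 3.95 and 5.48 CPM with BIO 300. Tlr4, the receptor for lipopolysaccharide, missed the fold threshold with TMM (-0.99) and fell by 2.39 with total counts, and its groups did not overlap with TMM. Tlr3 stayed under 1 CPM in every mouse.

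Interferon-stimulated genes gave 4 of 26 higher (15.4%) and 6 lower (23.1%) with TMM, and none higher and 17 lower (65.4%) with total counts. These shares were near those of all genes, 18.2% and 30.6% with TMM and 62.2% lower with total counts. Rsad2 (1.61 with TMM and 0.25 with total counts), Isg15 (1.93 with TMM and 0.53 with total counts), Ifit1 (1.36 with TMM and -0.05 with total counts) and Ifit2 (2.11 with TMM and 0.70 with total counts) rose with TMM. The antiviral GTPases Mx1 (-2.05) and Mx2 (-1.61), the sensors Ddx58 (-1.44), Zbp1 (-1.46) and Ifi204 (-1.53), and Oas2 (-1.84) fell. Rsad2 was abundant in all mice, with 899, 1480.2 and 2919 CPM with vehicle and 4082, 4992 and 6074 CPM with BIO 300. Among 12 genes of interleukin 1 and the inflammasome, 3 rose with TMM, Il1a, Il1r1 and the receptor antagonist Il1rn (1.33), and 3 fell, Gsdmd (-1.31), Pycard (-1.32) and Il18r1 (-1.40), and none rose with total counts. Both shares with TMM were 25.0%, near the background. Chemokine receptors gave 8 lower of 15 with TMM (53.3%) and 14 with total counts (93.3%), above the 30.6% and 62.2% of all genes. Among them were the lymphoid homing receptors Ccr7 (-1.86) and Cxcr5 (-1.69). The exception was Xcr1, which rose on both scales (2.61 with TMM and 1.18 with total counts), from 3.74 to 5.89 CPM to 19.6 to 43.5 CPM.

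Noncoding genes, many of them for nuclear RNA, were more often lower than higher. Of 1237 genes of the annotation class TEC (transcripts that await experimental proof), 937 fell and 67 rose with TMM, and 1094 fell and 9 rose with total counts, with medians of -3.10 and -4.35. The class took 0.166, 0.246 and 0.276% of counts with vehicle and 0.0363, 0.0438 and 0.0473% with BIO 300, without overlap. Sense intronic genes gave 127 lower of 158 with TMM, snoRNA genes 170 of 258, snRNA genes 160 of 276, antisense genes 747 of 1346 and lincRNA genes 454 of 1025. These shares, 80.4, 65.9, 58.0, 55.5 and 44.3%, stood beside 30.6% of all genes. With total counts they were 91.1, 88.8, 80.8, 74.6 and 63.7%, beside 62.2%. MicroRNA genes gave 199 lower and 35 higher of 333 with TMM. Their share of counts, in contrast, was 0.276 to 0.511% with vehicle and 0.580 to 1.56% with BIO 300. Processed pseudogenes gave 586 lower (32.5%) and 347 higher (19.2%) of 1803 with TMM, near the shares of all genes. Of 15681 protein-coding genes, 3296 rose and 3064 fell with TMM, and 701 rose and 8975 fell with total counts, with medians of -0.03 and -1.41.

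**Figure D3:**
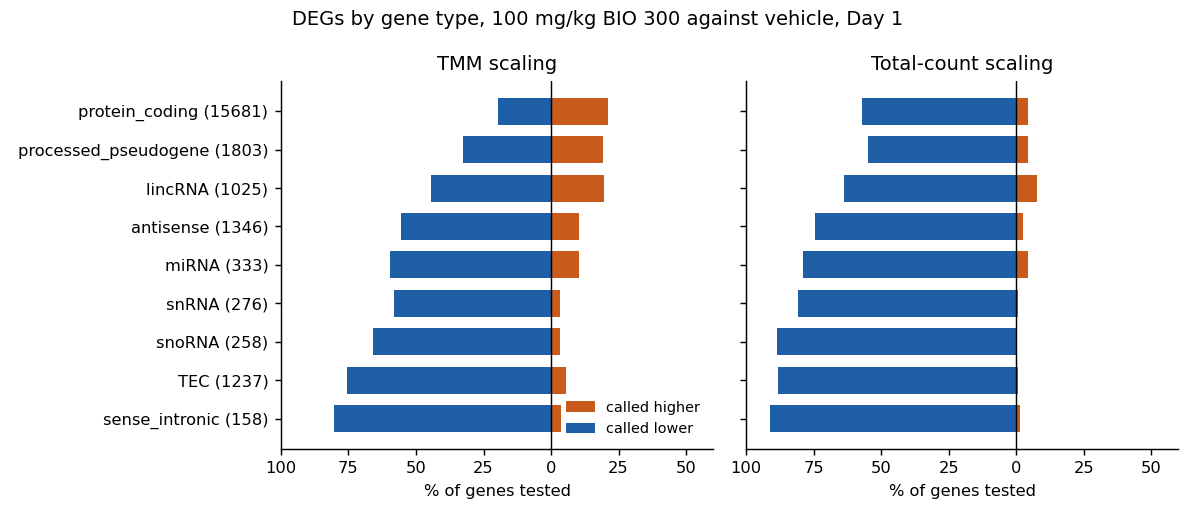
Percent of the genes tested that were called higher (right of 0) and lower (left of 0) in BIO 300-treated mice on Day 1, by annotated gene type, with TMM scaling and with total-count scaling; the number tested stands in parentheses. With TMM, protein-coding genes split almost evenly between both directions (3296 higher, 3064 lower), whereas TEC genes (67 higher, 937 lower) and sense intronic genes lie mostly on the lower side.

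Single-exon noncoding genes that lie within an intron of another gene on the same strand gave 1080 lower and 75 higher of 1529 with TMM, and 1335 lower with total counts. Of those on the opposite strand, 555 of 913 fell (60.8%, beside 30.6% of all genes) and 59 rose with TMM. The share of counts of this opposite-strand class, in contrast, was 0.2542 to 0.4692% with vehicle and 0.4696 to 1.28% in treated mice. That of the class on the same strand was 0.142 to 0.242% with vehicle and 0.0529 to 0.0653% in treated mice. Whether reads were counted by strand was not stated, so an intronic gene and the unspliced RNA of its host cannot be told apart. The inner gene and its host gene were compared within the same mice, where the scaling has little effect on the difference. The log2 fold change of the inner gene was the lower one in 1351 of 1462 pairs, over 1087 host genes, with a median difference of -3.12 with TMM and -2.86 with total counts. Among the 308 pairs in which the inner gene had a mean of at least 1 CPM in a group, it was lower in 274, with a median difference of -3.26 (TMM). An inner gene could meet this limit through the group where it was higher, so the subset is no separate support for the direction. In the other pairs the inner gene lay under 1 CPM in both groups. These are descriptions of the annotation class and were not tested.

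A130071D04Rik, a TEC gene at chr1:138161820-138167683 in an intron of Ptprc, the gene for CD45 of white cells, had the largest decrease among the genes named by rule. It stood at 22.5, 26.9 and 28.8 CPM with vehicle and 0.565, 1.02 and 2.61 CPM with BIO 300, without overlap, with a log2 fold change of -4.24 with TMM and -5.67 with total counts. Ptprc itself fell by 1.67 with TMM. C230085N15Rik at chr17:51757295-51761621, within Satb1, a chromatin organizer of T cells, stood at 8.23 to 12.7 CPM with vehicle and 0.0632 to 1.57 CPM with BIO 300. Its log2 fold change was -3.86 with TMM, beside -2.02 for Satb1. Gm43197 at chr6:3336772-3339354, within the noncoding gene Gm20559, fell from 13.5 to 22.1 CPM to 0.569 to 2.09 CPM (-3.89 with TMM and -5.32 with total counts).

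Gm26917, an annotated lincRNA at chr17:39843013-39846341 and one of several loci to which reads of ribosomal RNA map, was an abundant transcript that fell. It took 5.32, 7.36 and 8.77% of counts with vehicle and 0.134, 0.278 and 0.454% with BIO 300. No mice overlapped, and the log2 fold change was -3.22 with TMM (standard error 0.501, edgeR adjusted p = 6.93e-05) and -4.67 with total counts (standard error 0.374, adjusted p = 6.92e-08). Gm42418, its neighbor on the same strand at chr17:39846958-39848788, did not follow. It took 1.73, 2.38 and 3.18% with vehicle and 2.58, 4.46 and 7.58% with BIO 300 and rose with TMM (2.37 with TMM and 0.90 with total counts). Gm15564 and Mir6236, other loci that collect such reads, rose on both scales (3.13 with TMM and 1.68 with total counts and 2.87 with TMM and 1.43 with total counts). How much ribosomal RNA escaped depletion in each library was not tested.

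Most lists of nuclear RNA held more decreases than increases with TMM, and the structural noncoding RNAs did not. Neat1, the scaffold of paraspeckles, stood at 45.7, 52.8 and 60.2 CPM with vehicle and 16.5, 17.9 and 22.4 CPM with BIO 300, without overlap, with a log2 fold change of -1.49 with TMM and -2.91 with total counts. Malat1, which resides in nuclear speckles, differed by -0.68 with TMM and -2.10 with total counts and passed the fold threshold with total counts only. Of 17 nuclear and snoRNA-host long noncoding RNAs, 9 fell and 2 rose with TMM, Gas5 (1.07) and Pvt1 (1.47), and 14 fell with total counts. C/D box snoRNAs gave 25 lower and none higher of 40 with TMM and 36 lower with total counts, H/ACA box snoRNAs 11 lower and 2 higher of 21 with TMM and 15 lower with total counts, and RNAs of Cajal bodies 5 lower and 1 higher of 8 with TMM and 6 lower with total counts. Of 10 structural noncoding RNAs, 4 rose and 3 fell with TMM, and 2 rose and 6 fell with total counts. The shares that fell, 30.0% and 60.0%, were near the 30.6% and 62.2% of all genes. The shares that rose, 40.0% and 20.0%, were above the 18.2% and 4.14% of all genes. Rn7sk, the 7SK RNA that holds the elongation factor P-TEFb, took 0.234, 0.746 and 0.853% with vehicle and 0.0694, 0.0974 and 0.141% with BIO 300 (-1.36 with TMM and -2.79 with total counts). The other decreases with TMM were those of Rmrp (-1.19), the RNA of RNase MRP, and Rnu12 (-1.11), the U12 RNA of the minor spliceosome. The 4 that rose were the Y RNAs Rny1 (2.93 with TMM and 1.56 with total counts) and Rny3 (1.83 with TMM and 0.45 with total counts) and the 7SL RNAs of the signal recognition particle Rn7s1 (2.24 with TMM and 0.86 with total counts) and Rn7s2 (2.38 with TMM and 1.00 with total counts), of which Rny1 and Rn7s2 passed on both scales. Without any 1 of 6 mice (25, 26, 30, 37, 38 and 40) only 1 was higher with total counts.

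Proliferation genes were higher with TMM. Of 24 tested, 17 rose and none fell with TMM, and with total counts 1 rose and 4 fell. With TMM 70.8% rose, beside 18.2% of all genes. With total counts 4.17% rose, about the same as the 4.14% of all genes, and 16.7% fell, below the 62.2%. Leaving out 1 mouse gave 0 to 2 higher with total counts, with 0 without mouse 26 or mouse 40. Top2a, which untangles DNA, was called on both scales, at 24.1 to 44.5 CPM with vehicle and 158 to 224 CPM with BIO 300 (2.42 with TMM and 1.03 with total counts). Mki67, the Ki-67 antigen, rose from 101 to 265 CPM to 572 to 625 CPM with TMM (1.90 with TMM and 0.55 with total counts). Replication histones gave 33 higher of 61 with TMM (54.1%, beside 18.2% of all genes). With total counts 5 were higher and 17 lower (8.2% and 27.9%, beside 4.14% and 62.2%). Cytosolic ribosomal protein genes gave 16 higher of 79 with TMM (20.3%, beside 18.2% of all genes), and 1 higher and 45 lower with total counts (57.0% lower, beside 62.2%).

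Targets of NRF2, the regulator of the oxidative stress response, included members that rose on both scales. Of 15 tested, 9 rose and none fell with TMM, and 4 rose and 5 fell with total counts. The shares that rose, 60.0% and 26.7%, stood beside 18.2% and 4.14% of all genes, and 33.3% fell with total counts, beside 62.2%. Without any 1 of 5 mice (26, 28, 29, 30 and 42) 2 rose with total counts, and without mouse 39 3 fell. Srxn1, sulfiredoxin, stood at 23.1, 29.4 and 46.4 CPM with vehicle and 189, 246 and 489 CPM with BIO 300, without overlap, and its log2 fold change was 3.18 with TMM (standard error 0.247, edgeR adjusted p = 1.10e-07) and 1.76 with total counts (standard error 0.228, adjusted p = 5.64e-06). Glutathione reductase Gsr (2.43 with TMM and 1.02 with total counts) and the ferritin chains Fth1 (2.40 with TMM and 1.00 with total counts) and Ftl1 (2.66 with TMM and 1.28 with total counts) were the other members called on both scales. Red cell precursors and platelets also express ferritin and Srxn1, so these genes are not specific to the pathway, and ferritin has many processed copies in the genome. The inducible targets Hmox1 (0.28), Txnrd1 (0.18) and Slc7a11 (-0.36) were not called with TMM and fell with total counts, and Nqo1 rose with TMM (1.57 with TMM and 0.18 with total counts).

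The estrogen receptors, for which genistein is a ligand, were low in blood. Esr1 lay at 1.62 to 2.87 CPM with vehicle and 0.696 to 4.27 CPM with BIO 300 (-0.48 with TMM and -1.81 with total counts), and Esr2 stayed under 0.35 CPM in every mouse. Of 10 genes of their pathway, 2 rose with TMM (1 without any 1 of 7 mice), Ncoa1 (1.61 with TMM and 0.21 with total counts) and Esr2 (2.27 with TMM and 0.96 with total counts), and none with total counts. The 20.0% that rose with TMM was near the 18.2% of all genes. The aryl hydrocarbon receptor list gave 1 higher of 7 with TMM (14.3%), Cyp1b1, which stayed under 0.5 CPM. Cyp1a1, a target of this receptor, had at most 0.158 CPM. The count of 1 was 0 without mouse 37 and 2 without mouse 29. Of 18 p53 targets, 2 rose with TMM, Phlda3 (3.08 with TMM and 1.67 with total counts) and the death gene Bbc3 (1.24 with TMM and -0.16 with total counts), and 1 fell. These shares, 11.1% and 5.56%, were below the 18.2% and 30.6% of all genes. Phlda3, an inhibitor of AKT, was the member called on both scales, from 1.25 to 3.60 CPM to 13.4 to 23.1 CPM. Cdkn1a, the p53-induced inhibitor of the cell cycle, had 0.881, 1.60 and 2.08 CPM with vehicle and 1.43, 1.86 and 3.01 CPM with BIO 300, which overlapped (0.41 with TMM and -0.96 with total counts).

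Remaining lists gave few calls with TMM, at shares near or below those of all genes except for heat shock genes (23.1% higher). Heat shock genes gave 3 higher and 1 lower of 13, immediate early genes 1 higher and 2 lower of 17, glucocorticoid-responsive genes 1 higher of 12 and proteasome genes 3 higher of 31. Without mouse 39, 1 heat shock gene was higher, without mouse 37 no glucocorticoid-responsive gene was, and without mouse 38, 4 immediate early genes were lower. With total counts none of these lists had a gene called higher, while 7, 14, 8 and 22 were lower (53.8, 82.4, 66.7 and 71.0%, beside 62.2% of all genes). Circadian clock genes gave 2 higher and 2 lower of 15 with TMM (1 to 2 higher and 1 to 3 lower when 1 mouse was left out), and Npas2, a partner of the clock factor BMAL1, rose on both scales (3.58 with TMM and 2.17 with total counts), from 0.138 to 0.319 CPM to 1.94 to 3.71 CPM. Collagen alpha chain genes gave 7 higher and 9 lower of 38 with TMM (18.4% and 23.7%) and 14 lower with total counts (36.8%, below the 62.2% of all genes).

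The genes with the largest increases were named by a rule that required a call on both scales, 10 CPM in 1 group and no overlap. Among genes with an established symbol they were Ly6g6f, a surface protein of platelets (3.53 with TMM and 2.11 with total counts), Gp1bb (above), Ptprn, a protein of dense-core vesicles (3.36 with TMM and 1.97 with total counts), Maged2 (3.32 with TMM and 1.90 with total counts) and F11r, the junctional adhesion molecule A of platelets and endothelium (3.29 with TMM and 1.88 with total counts). Ly6g6f stood at 0.903, 1.24 and 2.31 CPM with vehicle and 11.1, 13.4 and 26.2 CPM with BIO 300. Maged2 stood at 8.75, 11.1 and 20.1 CPM with vehicle and 81.6, 104 and 234 CPM with BIO 300. Mouse 42 was the highest treated mouse for Ptprn, Maged2 and F11r. The largest decreases were those of Prr33 (-3.56 with TMM and -5.01 with total counts), Crybg2 (-3.36 with TMM and -4.77 with total counts), Zfhx2 (-2.95 with TMM and -4.31 with total counts), the PYHIN family gene Ifi208 (-2.87 with TMM and -4.29 with total counts) and the antisense gene Arhgap27os3 (-2.86 with TMM and -4.24 with total counts). Of these 5, only Ifi208 had no annotated gene overlapping its span. Prr33 overlaps Lsp1, and Crybg2 overlaps Cd52, both genes of leukocytes on the opposite strand.

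Among predicted genes, the largest increases belonged to Gm24245 (4.00 with TMM and 2.55 with total counts), Gm25732 (3.44 with TMM and 1.99 with total counts) and Gm8797 (3.34 with TMM and 1.93 with total counts). Gm24245 stood at 1.31, 1.67 and 1.85 CPM with vehicle and 11.0, 26.5 and 41.5 CPM with BIO 300, and Gm25732 at 5.50, 7.78 and 12.0 CPM and 51.0, 87.9 and 145 CPM. Both are annotated as microRNA genes within 200 bases of each other, at chr4:139338304-139338360 and chr4:139338206-139338265 on the plus strand. Their transcripts are printed from the reference because they carry the increase, Gm24245 in capitals because the same 57 letters also make up Gm23935 at chr16:11144125-11144181 and occur in the transcript of Gm24270.
Gm24245: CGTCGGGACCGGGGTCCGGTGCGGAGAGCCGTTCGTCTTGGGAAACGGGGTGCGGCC
Gm25732: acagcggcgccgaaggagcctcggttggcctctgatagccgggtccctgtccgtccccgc
Reads of these letters cannot be assigned to 1 of the identical copies, so the counts of Gm24245 are uncertain. The annotation does not show that a microRNA was made. Whether the counts of Gm24245 and Gm25732 come from ribosomal RNA, as at the loci above, was not tested.

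Of a list of 18 genes that the study names, 5 fell with TMM, Tlr6, Tlr3, Tlr8, Tlr2 and Fgfr1 (-1.02 with TMM and -2.38 with total counts), and none rose. The list does not hold every gene that the study names. S100a8 and S100a9, also named there, were counted above with the neutrophil genes and rose with TMM. The call of Fgfr1 was lost with DESeq2, RLE, upper quartile and filterByExpr fits and without any 1 of 5 mice, and that of Tlr2 without mouse 37. With total counts 7 fell, the same 5 and Tlr4 and Tlr5. The shares that fell, 27.8% with TMM and 38.9% with total counts, were below the 30.6% and 62.2% of all genes. The other 11 had low counts in most mice or followed mouse 29 and mouse 37. Hepatocyte genes took 0.301% of counts in mouse 29 and 0.287% in mouse 37, and at most 0.0165% in the other 10 mice. The fibrinogen genes Fga, Fgb and Fgg had medians under 0.5 CPM in both groups, and their highest values, 71.6, 68.5 and 62.9 CPM with vehicle and 89.9, 87.8 and 85.8 CPM with BIO 300, came from those 2 mice. Their log2 fold changes of 0.45, 0.48 and 0.58 with TMM had standard errors of 1.85, 1.87 and 1.89 and were not called. Those values turned with 1 mouse: without mouse 37 they were -2.96, -3.01 and -2.80, and without mouse 29 they were 5.36, 5.39 and 5.46 and called. None of 17 hepatocyte genes was called on either scale in all 12 mice, but without mouse 29, 16 of them were higher with TMM and 13 with total counts, without mouse 37 none was higher and 5 were lower with total counts, and without both mice 4 were higher with TMM. Of the 18 listed genes that the study names, 7 were higher with TMM without mouse 29, and 16 were lower with total counts without mouse 37. S100b, a calcium-binding protein that adipocytes and glia express, differed by 2.43 (edgeR adjusted p = 0.0744) with a median of 0 CPM in treated mice.

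Endothelial genes gave 7 higher of 8 with TMM (87.5%, beside 18.2% of all genes). With total counts 3 were higher (37.5%, beside 4.14%) and 1 lower. Fits that left out 1 mouse gave 5 to 7 higher with TMM. The 3 higher on both scales were Esam (3.17 with TMM and 1.75 with total counts), Kdr (2.82 with TMM and 1.44 with total counts) and Tie1 (3.09 with TMM and 1.66 with total counts), and the list took 0.00271 to 0.00521% of counts with vehicle and 0.00653 to 0.0161% with BIO 300. Megakaryocytes and platelets also express these 3 genes. The defining endothelial genes Cdh5 and Cldn5 reached at most 2.31 and 0.442 CPM in any mouse. Both belong to the list of 8, of which only 1 gene was not called higher with TMM. Of 8 adipocyte genes, 1 was called with TMM, or 5 without mouse 30 and 4 without mouse 37. It was Lep, at a median of 0 CPM with vehicle and at most 2.22 CPM with BIO 300. Of 3 pancreatic acinar genes tested, 2 were called higher with TMM, Cela1 (2.64 with TMM and 1.20 with total counts) and Cela2a (2.68 with TMM and 1.23 with total counts), and Cela2a had at most 1.17 CPM. Prss2, under 0.11 CPM with vehicle, was at 0 in all treated mice and was called lower. Muscle genes gave 1 higher and 1 lower of 6. The part of these cells in the results was not tested.

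Whether the pattern belonged to 1 dose was tested by comparing treated groups directly on Day 1, with no vehicle-treated mice in the fits. Between 200 mg/kg and 100 mg/kg, edgeR called 0 of 19942 genes with TMM and 0 with total counts, and 725 and 889 genes had an unadjusted p under 0.05. DESeq2 also called 0, with 582 genes at an unadjusted p under 0.05. The log2 difference of Pf4, as 200 mg/kg minus 100 mg/kg, was -0.08 (standard error 0.202), that of Cd3e 0.09 (0.362) and that of Gm26917 0.44 (0.590). A difference that misses the threshold does not show that both doses acted alike.

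Between 100 mg/kg and 50 mg/kg, 100 mg/kg had 4535 of 23011 genes (19.7%) that were higher and 6118 (26.6%) that were lower with TMM, and 1427 (6.2%) and 12329 (53.6%) with total counts. All 20 platelet genes were higher with TMM and 19 with total counts (medians 2.28 and 1.23). Of the 17 B cell genes, 14 were lower with TMM and 17 with total counts, and of the 19 T cell genes 18 on either scale. Of 1183 TEC genes, 848 were lower and 55 higher with TMM. Pf4 differed by 2.32 with TMM (standard error 0.243, edgeR adjusted p = 1.97e-06) and Gm26917 by -3.53 (0.560, 7.60e-05). Mitochondrially encoded genes were higher at 100 mg/kg in 12 of 12 cases with TMM and 11 with total counts.

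The difference between the effect of 100 mg/kg on Day 1 and that on Day 0 was tested as an interaction over 24 mice. Of 25908 genes, 4073 (15.7%) had a higher and 6817 (26.3%) a lower effect on Day 1 with TMM, and 911 (3.52%) and 14606 (56.4%) with total counts. All 20 platelet genes had a higher effect on Day 1 on both scales (medians 2.98 and 1.62). Of 17 B cell genes 16 had a lower effect with TMM and 17 with total counts, and of 19 T cell genes 18 and 19. Days were confounded with the mice sampled, since each mouse was bled on 1 day only.

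Shares of counts in the 4 other groups gave the levels behind these tests. The platelet list took 0.584 to 0.986% (vehicle, Day 0), 0.636 to 1.01% (100 mg/kg, Day 0), 0.668 to 1.14% (50 mg/kg, Day 1) and 1.56 to 2.54% (200 mg/kg, Day 1). B cell genes took 0.211 to 0.419% (vehicle, Day 0), 0.205 to 0.482% (100 mg/kg, Day 0), 0.172 to 0.371% (50 mg/kg, Day 1) and 0.0170 to 0.0768% (200 mg/kg, Day 1). Gm26917 took 3.55 to 8.02% (vehicle, Day 0), 2.73 to 10.0% (100 mg/kg, Day 0), 4.05 to 10.5% (50 mg/kg, Day 1) and 0.0562 to 1.46% (200 mg/kg, Day 1). In all 3 measures the treated mice of 100 and 200 mg/kg on Day 1 stood apart from both Day 0 groups and from 50 mg/kg. Libraries of a group were prepared from different mice, and the sources used here name no batch, so a batch that follows the groups cannot be told apart from the dose and the day.

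**Figure D4:**
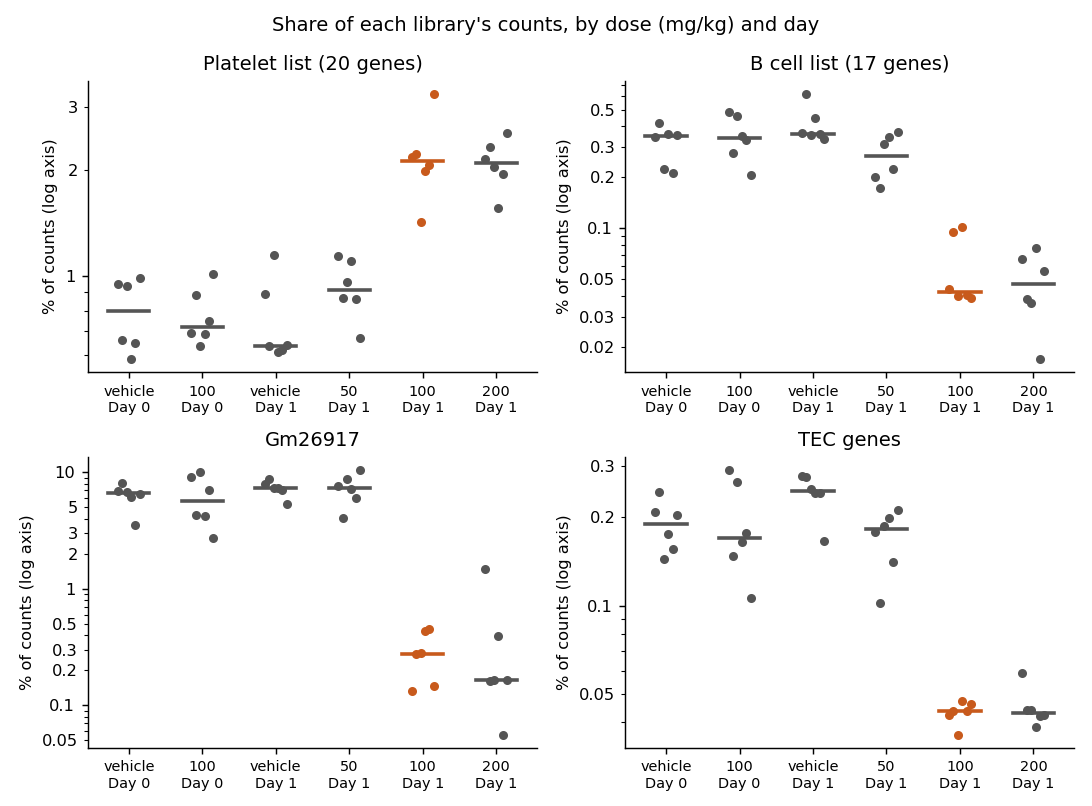
Percent of each library's counts (log axis) on the platelet list, the B cell list, Gm26917 and TEC genes in 6 groups of 6 unirradiated mice, by dose (mg/kg) and day; each point is 1 mouse, each bar the group median, and orange marks 100 mg/kg on Day 1. The mice given 100 or 200 mg/kg and sampled on Day 1 lie apart from the other 4 groups in every panel, with Gm26917 at 0.134 to 0.454% in the orange group against 5.32 to 8.77% with vehicle on Day 1.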

How the data were processed

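Per the labels and the methods of the study, the authors isolated RNA from whole blood in PAXgene tubes, used Trimmomatic 0.36 for trimming, STAR 2.5.2b for alignment to GRCm38 and Subread 1.5.2 for counting uniquely assigned reads. The deposited values are raw integer counts per gene, with no normalization. The labels name poly(A) selection and the methods name stranded total RNA depleted of ribosomal and globin RNA, a conflict that bears on noncoding genes and globin. The annotation release and the strand setting of the counting are not given in the sources used here. The deposited log2 fold changes, p-values and normalized signal columns of the authors' DESeq2 runs were not used. Each table held 49315 genes, of which 49056 matched GENCODE annotation of GRCm38, which gave types, positions and hosts.

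Mice were grouped by their labels. Counts were fitted with edgeR 4.0.16 (TMM, glmQLFit, glmQLFTest) in R 4.3.3 for genes whose counts, summed over the mice of a comparison, reached 10, and p-values were adjusted by Benjamini-Hochberg. The limits for DEGs, from the methods, were 0.05 for the adjusted p and 1 for the absolute log2 fold change. The standard error is the log2 fold change divided by the square root of F. The scripts were tested on simulated counts. Alternatives were total counts, RLE, upper quartile, total counts without the 20 most abundant genes, no filter, filterByExpr, DESeq2 1.42.0 and leaving out each mouse. No 2 libraries of a group agreed within sampling noise (smallest chi-square per gene 24.8 with vehicle and 27.8 with BIO 300 on Day 1). Which mice shared a cage is not given, and p-values measure the spread between mice.

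The comparison, the lists and their members were chosen with earlier results of these data known. Named genes were fixed members of the lists by role, the 5 highest and 5 lowest genes called on both scales with a mean of 10 CPM in 1 group and no overlap, the 3 highest and 3 lowest predicted genes by the same limits, and a list of 18 genes named by the study. Other list members given with values were picked after these were seen. Gene lists were described by counts and medians and not tested. Promoter windows came from RefSeq.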

Additional observations from a re-analysis of the deposited data

Results flagged for a closer look

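Each group of 6 mice was searched for a single mouse far from the other 5, by the gap to its nearest neighbor over the whole range and Dixon's critical value. Of 172 such groups of values 21 met this limit, and chance flags about 1 in 20. Among vehicle-treated mice, mouse 30 had the deepest library (32.9 M counts, next 25.3 M counts) and the lowest shares of Rn7sk (0.234%, next 0.680%), TEC genes (0.166%, next 0.242%) and intronic noncoding genes on the same strand (0.142%, next 0.221%). Mouse 25 was highest for Hba-a1, with 0.248% of counts and 1418 CPM (TMM). Mouse 27 was highest for endothelial genes (0.00521% of counts), platelet counts over adult globin counts (0.115) and Maged2 (20.1 CPM), and mouse 28 was lowest for Prr33 (8.00 CPM). Hepatocyte genes stood out in mouse 29 (0.301%) and, among treated mice, in mouse 37 (0.287%), which also had the most genes with at least 1 count (20941).

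Among the other BIO 300-treated mice, mouse 42 was highest for neutrophil counts over T cell counts (3.03), Itga2b (4748 CPM), Ptprn (69.3 CPM), Maged2 (234 CPM) and F11r (97.8 CPM). Mouse 39 was highest for Hba-a2 (5698 CPM), mouse 41 for Alas2 (131114 CPM) and mouse 40 for Arhgap27os3 (3.91 CPM). None of these mice was left out of the values in the report.

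The effect of 100 mg/kg differed between Day 1 and Day 0 by the interaction test for 4073 genes with a higher and 6817 with a lower effect on Day 1 (edgeR, TMM).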

How the results depend on the processing

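With total counts in place of TMM, DEGs between 100 mg/kg and vehicle numbered 980 higher and 14735 lower, between 100 and 50 mg/kg 1427 and 12329, and in the interaction with day 911 and 14606. With total counts without the 20 most abundant genes the same counts were 1348 and 13809, 1642 and 11794, and 1198 and 13743. The edgeR filter filterByExpr kept 15255 genes in the main comparison, of which 3553 were higher and 4024 lower. Between 100 and 50 mg/kg it kept 14267 genes, of which 3108 were higher and 3186 lower. Higher genes then made up 46.9% and 49.4% of those called, beside 37.3% and 42.6% with the main filter. Lower calls thus dropped more than higher ones, and the reason was not tested. The share of higher genes among those called in the main comparison was 37.3% with TMM and 6.24% with total counts. DESeq2 (4404 higher, 6450 lower), RLE (4491 and 7002), upper quartile (4534 and 6927) and no filter (4451 and 7219) stayed within 1.5 times of the TMM counts. Over fits that each left out 1 mouse, there were 4079 to 4925 higher and 6826 to 7344 lower with TMM and, in an alternative chosen after seeing the data, 858 to 1280 higher and 14175 to 15336 lower with total counts. Also chosen after seeing the data, the fit without mice 29 and 37 gave 4311 higher and 6849 lower, and that without mice 37 and 41 gave 3880 and 6446. Between 200 and 100 mg/kg the count was 0 with each scaling, each filter and DESeq2 and, with TMM, in each fit that left out 1 of the 12 mice. No paired analysis was possible because the replicate numbers are animal numbers, which no 2 groups share.

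Of the 64 named genes, 12 changed sign with total counts, namely Slc4a1 (-0.16), S100a8 (-0.10), S100a9 (-0.22), Cdkn1a (-0.96), Egfr (-0.24), Fgfr3 (-0.79), C3 (-0.60), Hc (-0.20), Tgfa (-0.16), Fga (-0.77), Fgb (-0.74) and Fgg (-0.64). Without the most abundant genes 9 did, S100a9 (-0.0103), Cdkn1a (-0.76), Egfr (-0.0625), Fgfr3 (-0.60), C3 (-0.41), Hc (-0.0294), Fga (-0.59), Fgb (-0.56) and Fgg (-0.46). Over the mice left out in turn, 10 genes crossed 0, each without mouse 37, with ranges of -2.07 to 4.42 (Egfr), -6.05 to 4.51 (Fgfr2), -1.40 to 1.14 (Fgfr3), -5.34 to 7.07 (Fgfr4), -0.60 to 1.42 (C3), -3.49 to 4.41 (Hc), -1.85 to 2.34 (Tgfa), -2.96 to 5.36 (Fga), -3.01 to 5.39 (Fgb) and -2.80 to 5.46 (Fgg). The cause was not tested, beyond the hepatocyte counts of mice 29 and 37 given in the report. For these genes, most of which lay under 1 CPM in most mice, depth limits what a fold can show.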
